A study of Mus musculus with 4 samples.

Results

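The induction of Yap in transgenic small intestinal organoids was described from a pair of RNA-seq libraries, YapTg organoids grown with doxycycline (induced) and YapTg organoids grown without it (uninduced). All genes that reached 1 RPKM (reads per kilobase of gene, scaled to library depth) in either library were taken, 11108 of 22632 genes measured. YapTg mice carry a wild-type Yap transgene that doxycycline switches on through the reverse tetracycline transactivator rtTA, which is itself switched on by Cre. For induction, 1.5 mg/ml of doxycycline, as the labels give the dose, was in the medium from the time the crypts were seeded. Both libraries came from whole crypts of the small intestine, harvested 24 hours after seeding in a medium with EGF, noggin and R-spondin. Yap+/- organoids (Yap +/fl with Villin-Cre) and Yap-/- organoids (Yap fl/fl with Villin-Cre), both without doxycycline and harvested at the same time, served for reference. Each of the 4 groups was 1 library, and nothing in the labels says how many mice stood behind it. The Cre that drives rtTA in the YapTg line is not named there. None of the 4 groups had doxycycline without the transgene, so drug and transgene cannot be told apart.

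YAP, the product of Yap1, is a co-activator that enters the nucleus when the Hippo kinases MST and LATS are inactive, binds the TEAD proteins on DNA, and switches on genes of adhesion, cytoskeleton and growth. Several of its targets encode inhibitors of YAP itself, which closes a feedback loop. In the intestine YAP is known for its part in regeneration after injury, when crypts pass through a state with genes of the fetal epithelium before stem cells and differentiated cells return.

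The libraries held 44934170 (uninduced), 75269003 (induced), 56926423 (Yap+/-) and 67716822 (Yap-/-) reads, and between 86.1% and 90.6% of them lay in genes. General epithelial markers were high with and without doxycycline. Between the uninduced YapTg and the Yap+/- library, 200 of 10883 genes (1.84%) differed by 2-fold. Epcam stood at 372 RPKM uninduced and 335 induced, the villus gene Vil1 at 222 and 208 RPKM, and the intestinal cadherin gene Cdh17 at 234 and 260.2 RPKM. Of 18 stromal markers 2 reached 1 RPKM in either library, and their summed level over the whole list was 4.15 RPKM uninduced and 2.53 induced. Of 22 measured immune markers 4 did, with sums of 14.2 and 13.6 RPKM. Col1a1 had 0 reads in the induced library, and the leukocyte gene Ptprc was at 0.256 and 0.153 RPKM. Of 15 gastric markers 2 reached 1 RPKM, with Muc5ac and Gkn2 at 0 reads in the induced library. Transcripts of the mitochondrial genome made up 6.16% of summed RPKM uninduced and 5.73% induced. Y-linked genes were at or near 0 in both YapTg libraries and summed to 8.79 RPKM in Yap+/- and 11.2 RPKM in Yap-/-, so the YapTg and Yap libraries differ in more than their Yap alleles.

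Induction came with a broad difference between the libraries. A gene was counted as higher or lower when its log2 ratio, taken on RPKM plus 1, reached 2-fold. By that rule 650 of 11108 genes (5.85%) were higher in the induced library and 644 (5.8%) were lower. At 4-fold 191 (1.72%) were higher and 121 (1.09%) lower. The median log2 ratio over all genes was -0.04, and these shares and this median are the background for every gene group below. With 1 library a side there is no test and no replicate check. Folds are ratios of RPKM with an exact binomial 95% interval that covers counting error only, not the spread between cultures. PCR copies are not independent molecules, so the interval may understate even the counting error. The 1 RPKM limit fell between Ppef1, just inside at 1.0007 RPKM uninduced and 0.947 induced, and Fbxo24, just outside at 0.151 and 0.9996 RPKM.

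**Figure D1:**
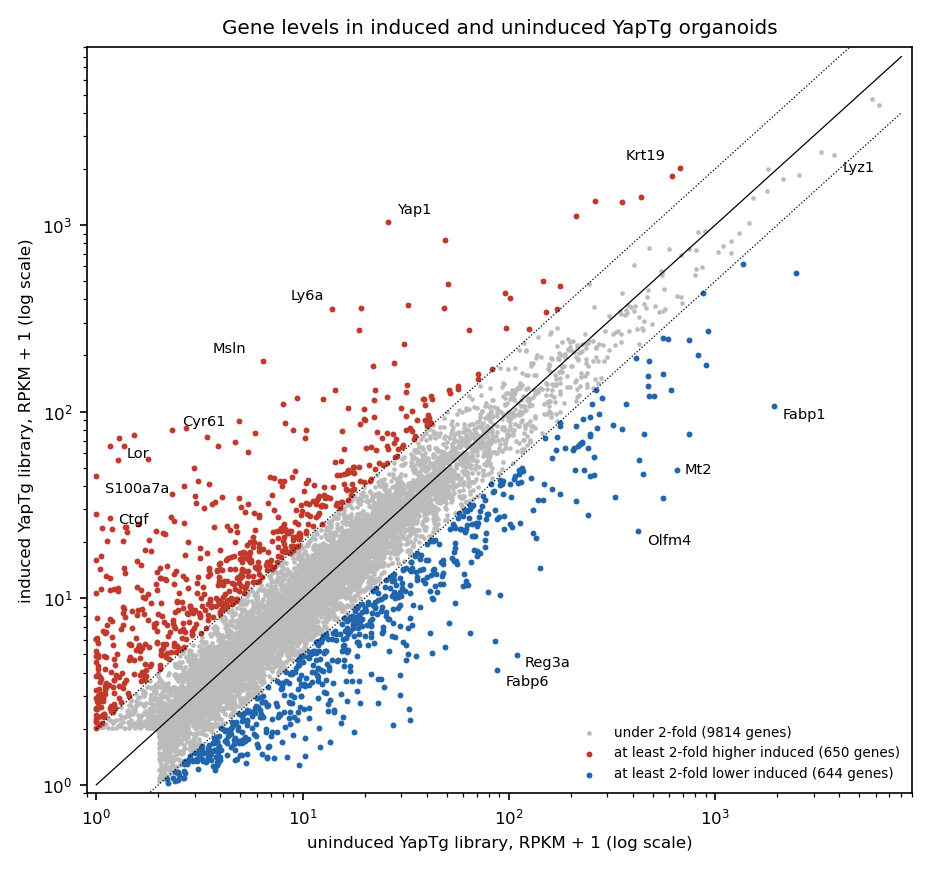
Level of each of the 11108 genes in the uninduced (x axis) and induced (y axis) YapTg library, as RPKM plus 1 on log axes. Solid line, equal levels; dotted lines, 2-fold. The 650 genes in red were at least 2-fold higher and the 644 in blue at least 2-fold lower with induction, and Yap1 went from 25.1 to 1039 RPKM.

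Because the call is a ratio to the uninduced library, the higher genes tended to be low there and the lower genes high. The 650 higher genes had a median of 3.11 RPKM uninduced and 14.2 RPKM induced, and 181 of them were under 1 RPKM without doxycycline. The 644 lower genes had medians of 16.6 and 4.96 RPKM. As shares of all RPKM, the higher genes went from 2.95% to 12.8% and the lower genes from 15.3% to 4.62%, directions the call fixes. Among genes that reached 100 RPKM, 11.1% were higher and 18.5% lower, against 3.83% and 4.01% of the genes between 1 and 5 RPKM. RPKM values are relative to the library total. Calls were also set against both Yap libraries, a comparison chosen after the data were seen. The induced library stood 2-fold or more above all 3 other libraries for 578 of the 650 genes (5.2% of all genes) and below all 3 for 513 of the 644 (4.62%).

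Yap1 checks the labels. It stood at 25.1 RPKM uninduced, 1039 induced, 16.7 in Yap+/- and 3.35 in Yap-/- organoids. The induced library was 41.4-fold above the uninduced (95% interval 40.6 to 42.3), and Yap1 moved from rank 1983 to rank 16 among all genes. Its reads grew from 0.0236% to 0.971% of the reads in genes. Reads of the transgene and of the endogenous gene cannot be told apart in this value. The paralogue TAZ, from Wwtr1, was also higher but stayed low, at 0.526 RPKM uninduced, 3.66 induced, 0.390 in Yap+/- and 0.127 in Yap-/-.

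Nearly all YAP/TEAD targets were higher. Of 22 targets at 1 RPKM or more, 19 were at least 2-fold higher with induction and 0 lower, with a median log2 ratio of 2.00. Setting the 2 genes with 0 uninduced reads to the bound of 3 reads could not move this median, because both stayed above it. The median was 1.33 with 5 added to RPKM in place of 1, and 1.54 without the 1 RPKM limit. It was above 2.00 with 0.1 added, and with a limit of 5 RPKM. All 19 also stood at least 2-fold above all 3 other libraries. Ctgf, a secreted matrix protein and the standard YAP reporter, stood at 0.161 RPKM uninduced, 26.0 induced, 0.374 in Yap+/- and 0.0830 in Yap-/-. That is 162-fold (95% interval 102 to 273), a wide interval that rests on 18 uninduced reads. Cyr61, a relative of Ctgf, was at 1.33, 78.4, 0.814 and 0.655 RPKM in the same order. Ankrd1, an ankyrin repeat protein of the nucleus, had 0 reads in each of the 3 other libraries and 5.08 RPKM in the induced one, at least 215-fold higher. Axl, a receptor tyrosine kinase, had 0 uninduced reads and 9.63 RPKM with induction, at least 726-fold higher. Birc5, an inhibitor of apoptosis that also follows cell division, was at 17.2 and 16.2 RPKM and was 1 of the 3 targets inside 2-fold.

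Short promoter stretches of higher and lower genes are printed here because the members of these groups lay on the same side, and because the motifs of factors known for such genes can be read in the letters. Sequences and start sites are from RefSeq on GRCm38.p6, while the authors aligned to mm9, and no mm9 coordinate is used. Each stretch ends at the base before the start site and is written 5′ to 3′ on the strand of the gene. Capitals mark exact matches, on either strand and overlapping ones included, to the motif its set is shown for, and matches to the other motifs stay in lower case. The motifs searched were GGAATG for TEAD, TGANTCA for AP-1, GAAA repeated after any 2 bases for the interferon response element and TTTATG for CDX. A match is a description and does not show a bound site. The genes shown were picked from those with a match. The first set holds TEAD matches before genes that were among the furthest higher.
Amotl2: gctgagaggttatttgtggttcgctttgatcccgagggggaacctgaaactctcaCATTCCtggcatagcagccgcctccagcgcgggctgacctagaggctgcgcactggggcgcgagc
Ankrd1: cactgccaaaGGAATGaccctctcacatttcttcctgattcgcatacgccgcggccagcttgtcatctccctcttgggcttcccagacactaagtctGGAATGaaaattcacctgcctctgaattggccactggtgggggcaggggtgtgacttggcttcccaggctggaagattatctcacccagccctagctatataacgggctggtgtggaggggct
Il33: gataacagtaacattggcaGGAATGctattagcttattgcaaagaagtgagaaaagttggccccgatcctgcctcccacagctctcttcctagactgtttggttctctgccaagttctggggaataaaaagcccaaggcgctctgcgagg
Epha2: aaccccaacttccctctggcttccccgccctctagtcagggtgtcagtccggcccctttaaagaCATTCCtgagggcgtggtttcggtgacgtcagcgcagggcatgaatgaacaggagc
S100a7a: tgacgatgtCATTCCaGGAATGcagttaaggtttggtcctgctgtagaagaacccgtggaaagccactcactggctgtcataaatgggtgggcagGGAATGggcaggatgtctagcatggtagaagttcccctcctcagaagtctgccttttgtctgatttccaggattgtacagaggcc
The stretches lie at chr9:102717684-102717803, plus strand for Amotl2, chr19:36119845-36120064, minus strand for Ankrd1, chr19:29924963-29925112, plus strand for Il33, chr4:141301101-141301220, plus strand for Epha2 and chr3:90654122-90654301, plus strand for S100a7a. In Ankrd1 the matches begin 210 and 123 bases before the start site. In S100a7a a CATTCC and a GGAATG are separated by a single base, and another match follows at 85 bases. The next pair holds AP-1 matches, in the stretch before the urokinase receptor gene Plaur (chr7:24462363-24462482, plus strand) and before Emp1 (chr6:135362771-135362930, plus strand), which encodes a tetraspan membrane protein.
Plaur: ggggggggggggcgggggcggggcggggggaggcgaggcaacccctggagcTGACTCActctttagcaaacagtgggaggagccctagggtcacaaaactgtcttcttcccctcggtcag
Emp1: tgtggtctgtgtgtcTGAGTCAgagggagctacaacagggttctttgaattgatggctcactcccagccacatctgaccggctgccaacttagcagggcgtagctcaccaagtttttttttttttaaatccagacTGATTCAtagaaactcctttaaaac
Before the antiviral genes Isg15 (chr4:156200819-156200938, minus strand) and Ifit1 (chr19:34640769-34640888, plus strand), the interferon response element occurred in 3 overlapping matches for Isg15, which begin 78, 72 and 66 bases before the start site, and in matches at 104 and 85 bases for Ifit1.
Isg15: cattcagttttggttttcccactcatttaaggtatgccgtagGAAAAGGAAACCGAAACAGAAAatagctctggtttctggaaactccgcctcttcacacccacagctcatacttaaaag
Ifit1: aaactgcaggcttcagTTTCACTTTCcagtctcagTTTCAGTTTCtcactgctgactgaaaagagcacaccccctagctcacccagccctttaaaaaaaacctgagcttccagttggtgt
The last set is from genes that were lower, and holds matches to the motif of CDX1 and CDX2, homeobox factors of intestinal identity, before Fabp1 (chr6:71199639-71199878, plus strand), Sis (chr3:72967864-72967963, minus strand) and Agr2 (chr12:35992845-35992924, plus strand).
Fabp1: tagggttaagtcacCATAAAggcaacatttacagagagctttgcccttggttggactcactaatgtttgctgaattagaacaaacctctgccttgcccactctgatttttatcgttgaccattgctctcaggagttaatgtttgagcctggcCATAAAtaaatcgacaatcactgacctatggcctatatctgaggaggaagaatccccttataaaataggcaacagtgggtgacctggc
Sis: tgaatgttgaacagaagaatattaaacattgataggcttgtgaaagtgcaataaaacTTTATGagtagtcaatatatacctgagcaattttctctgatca
Agr2: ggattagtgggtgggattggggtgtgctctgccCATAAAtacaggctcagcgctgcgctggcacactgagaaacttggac

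Matches to TEAD and AP-1 were more frequent in the higher genes than in all genes, and matches to CDX in the furthest lower genes, as counts without a test. Each of these motifs was also more frequent on the opposite side than in all genes, by a smaller amount. A window of 250 bases before a RefSeq start site was found for 7838 of the 11108 genes. GGAATG was in 12.8% of these genes, in 19.5% of those at least 2-fold higher and in 29 of the 132 at least 4-fold higher. Yap1 is among the 29, although its reads can come from the transgene. The genes at least 2-fold lower had GGAATG in 14.9%. Within the YAP/TEAD target list 5 of 11 higher genes with a window (45.5%) had a match. The AP-1 motif was in 5.5% of all genes, 12.2% of the higher and 9.7% of the lower. The interferon element was in 3.04% of all genes, 5.06% of the higher, 9.85% of the 4-fold higher and 2.8% of the lower. The CDX motif was in 7.44% of all genes, 8.74% of the higher, 10.6% of the 4-fold higher and 11.2% of the lower. It was in 18 of the 88 genes at least 4-fold lower (20.5%), among them Olfm4, Fabp6, Ccl25 and Spdef. The strict HNF1 motif, GTTAAT and ATTAA with any base between them, was found before 4 of the 7838 genes, 1 of them the chloride exchanger gene Slc26a3. Over all 32851 windows in the table, called or not, the shares were 12.6% for TEAD, 6.75% for AP-1, 2.98% for the interferon element, 10.8% for CDX and 0.0609% for HNF1. These are shares of windows, unlike the shares of genes above. By window, the 7838 genes had 10.8% for TEAD, 4.56% for AP-1, 2.5% for the interferon element and 6.11% for CDX. Base composition was not compared between the groups.

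**Figure D2:**
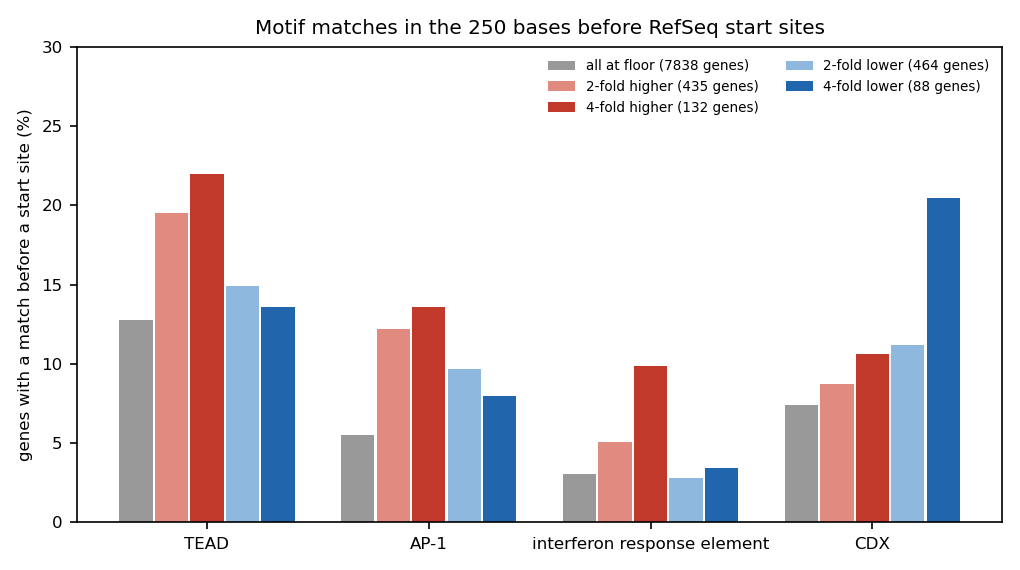
Percent of genes with at least 1 match to each motif in the 250 bases before a RefSeq start site, for all 7838 genes with a window and for the genes 2-fold and 4-fold higher or lower with induction. The bars for TEAD and AP-1 are highest in the 4-fold higher genes (29 of 132 genes and 13.6%), and the bar for CDX is highest in the 4-fold lower genes (20.5%).

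Several genes that encode inhibitors and partners of YAP were higher, while of the core kinase genes Lats2 was higher and Lats1, Stk3 and Stk4 were within 2-fold. Of 27 Hippo pathway genes, some of them also in the target list, 11 were at least 2-fold higher and 0 lower, with a median log2 ratio of 0.45. Amotl2, an angiomotin that holds YAP in the cytoplasm, was at 0.782 RPKM uninduced, 54.5 induced, 0.673 in Yap+/- and 0.366 in Yap-/-. The scaffold genes of the KIBRA family differed by unequal amounts. Wwc2 was at 0.411 and 21.7 RPKM, 52.8-fold higher (95% interval 46.5 to 60.2), and Wwc1 at 24.5 and 119 RPKM, 4.84-fold higher. The kinase gene Lats2 was 12.6-fold higher (0.570 to 7.18 RPKM), whereas its paralogue Lats1 stood at 14.1 and 16.7 RPKM. The TEAD genes were split as well. Tead4 was 15.7-fold and Tead1 4.00-fold higher, Tead3 stood at 4.27 and 6.17 RPKM, and Tead2 at 1.48 and 0.381 RPKM. The LIM protein gene Jub (Ajuba), which binds LATS, went from 2.43 to 72.3 RPKM. Nf2 (merlin), Stk3 (MST2) and Vgll4, a competitor of YAP on TEAD, were within 2-fold.

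**Figure D3:**
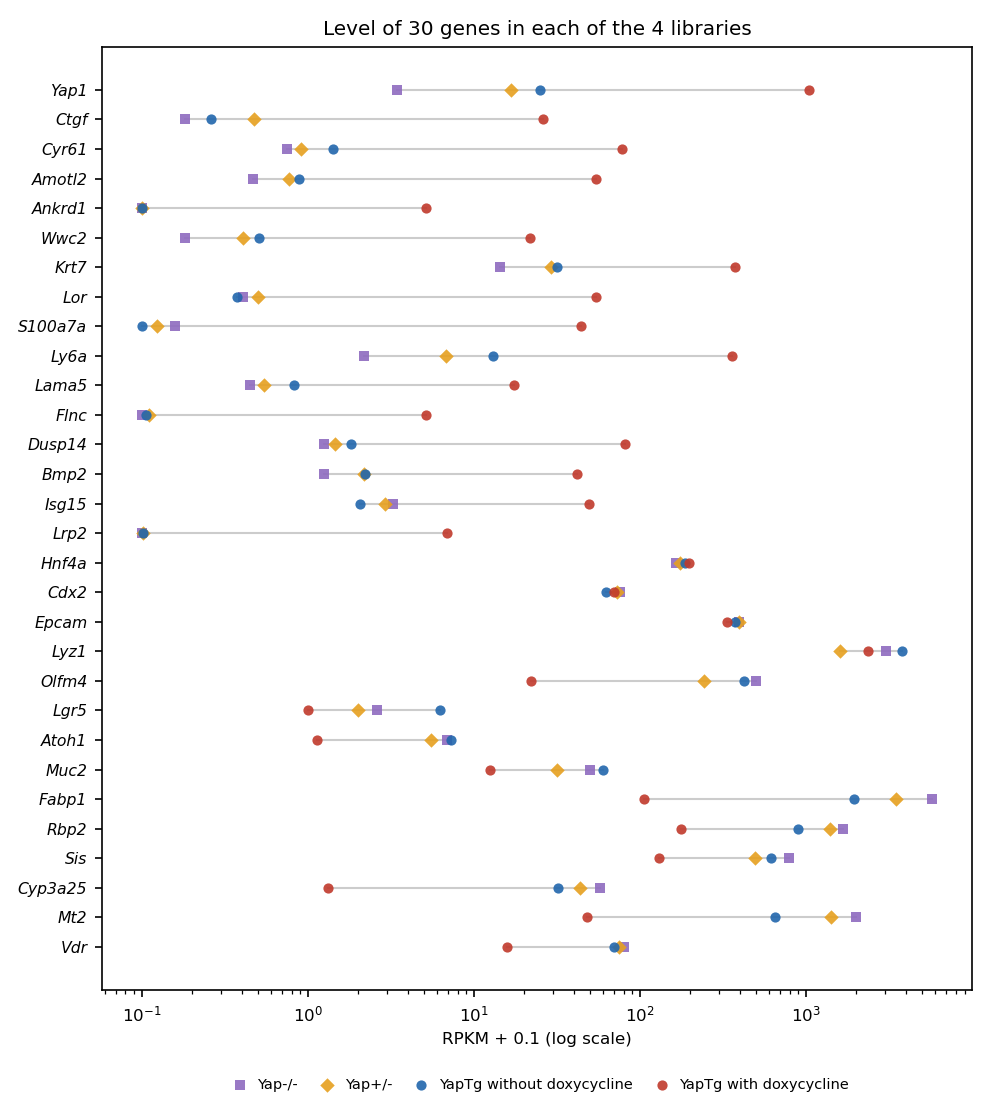
Level of 30 genes in each of the 4 libraries, as RPKM plus 0.1 on a log axis, with 1 point per library. The induced library (red circle) stands to the right of the other 3 for genes from Yap1 to Lrp2, near them for Hnf4a, Cdx2 and Epcam, inside their range for Lyz1 and to the left of them from Olfm4 to Vdr.

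Keratins of simple epithelium gained more summed RPKM than any other of the 93 gene lists. Their summed share of RPKM went from 0.635% to 2.30%, and 5 of 6 were at least 2-fold higher. Krt19 was at 676 RPKM uninduced, 2011 induced, 835 in Yap+/- and 646 in Yap-/-, and its filament partner Krt8 at 618, 1819.7, 755 and 579.7 RPKM. Krt8 held to between 89.7% and 91.3% of Krt19 in all 4 libraries, but Krt18 went from 38.6% to 67.3% of Krt19 with induction. Krt7, a keratin of ducts that the small intestine normally holds at low level, was 11.8-fold higher (31.5 to 372 RPKM), and Krt20, a keratin of mature villus cells, 1.68-fold. Of 6 stratified keratins at 1 RPKM, 5 were counted as higher, but 3 of these need care. Krt14, Krt16 and Krt17 stood at 2.07% to 2.48% of Krt19 in every library, and Krt23, of the simple keratins, at 2.30% to 2.90%. Krt14, Krt16 and Krt17 are similar in sequence to Krt19, and their reads may be shared. The treatment of reads with several matches is not stated. The 2 that differed in their ratio to Krt19 were Krt80, at 0.187 and 22.4 RPKM, and Krt4, at 0.188 and 6.54 RPKM.

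Genes of the cornified envelope, the protein shell of skin and other squamous surfaces, were mostly higher. Of 10 such genes at 1 RPKM, 8 were at least 2-fold higher, with a median log2 ratio of 1.71, and 5 of the 8 stood above all 3 other libraries. Without the 1 RPKM limit the median was 0.35. Lor (loricrin) was at 0.276 RPKM uninduced, 54.2 induced, 0.406 in Yap+/- and 0.308 in Yap-/-, 196-fold higher (95% interval 129.6 to 314). The plakin gene Ppl went from 5.13 to 26.3 RPKM, and its partner Evpl was at 2.86 and 2.64 RPKM. Sprr2a3, a small proline-rich protein, reached 1120.2 RPKM from 211, with 552 in Yap+/- and 90.5 in Yap-/-. The Sprr2a copies are near-identical, so how reads fall between them is uncertain. Among markers under 1 RPKM, the basal genes Trp63 and Krt5 had 2 and 7 induced reads, and of suprabasal markers Ivl had 0 and Krt13 stood at 0.0365 RPKM. Of 9 transcription factors of squamous and foregut epithelium at 1 RPKM, 1 was past 2-fold. It was Gata3, a factor of skin and T cells, with 0 reads uninduced and 5.01 RPKM induced, at least 299-fold higher. Of 4 defining squamous markers at 1 RPKM 3 were higher, Lor, Krt4 and the basal keratin gene Krt14 (15.6 to 47.8 RPKM, with the limit on its reads given above). All 14 markers summed to 18.2 RPKM uninduced and 111 induced.

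Members of the S100, annexin and Ly6 families were mostly higher or within 2-fold. Of 13 S100 genes 9 were higher and 1 lower, with a median of 1.13. S100a7a (psoriasin-type) had 0 uninduced reads and 44.1 RPKM with induction, at least 978-fold higher, and stood at 0.0237 in Yap+/- and 0.0598 in Yap-/-. S100a6 went from 354 to 1321 RPKM. S100g, which carries calcium through absorptive cells and depends on vitamin D, was the exception, at 257 RPKM uninduced, 56.3 induced, 626 in Yap+/- and 537 in Yap-/-. Of 12 annexins, which bind membranes, 5 were higher and 1 lower. Anxa3 was 15.5-fold and Anxa1 12.6-fold higher, and Anxa13, the intestinal annexin, went from 264 to 129.6 RPKM. Of 12 Ly6-type genes, which encode small anchored surface proteins, 9 were higher and 0 lower, with a median of 2.60. The 1 RPKM limit takes in genes that reach it only with induction. Without that limit the Ly6 median was 0.13, and without the furthest member 1.81.

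Ly6a (Sca-1), a mark of regenerating and fetal epithelium, was at 13.0 RPKM uninduced, 356 induced, 6.67 in Yap+/- and 2.09 in Yap-/-. Psca was 142-fold higher (0.521 to 74.2 RPKM). Ly6c1 was 244-fold higher on 22 uninduced reads, and its near-identical copy makes the value uncertain. Clade B serpins, inhibitors of proteases inside cells, were higher for 4 of 7. Serpinb9b, an inhibitor of granzyme-type proteases, had the largest log2 ratio of all genes, with 0.171 RPKM uninduced, 64.7 induced, 0.238 in Yap+/- and 0.00908 in Yap-/-. In the list of fetal-like and revival markers 13 of 18 were higher and 0 lower. Besides Ly6a they include Il33, an alarm cytokine (0.589 to 23.9 RPKM), Tnfrsf12a, the receptor of TWEAK (26.9 to 182 RPKM), and Emp1 (49.6 to 479.5 RPKM). Cd44 was at 11.2 and 8.19 RPKM.

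**Figure D4:**
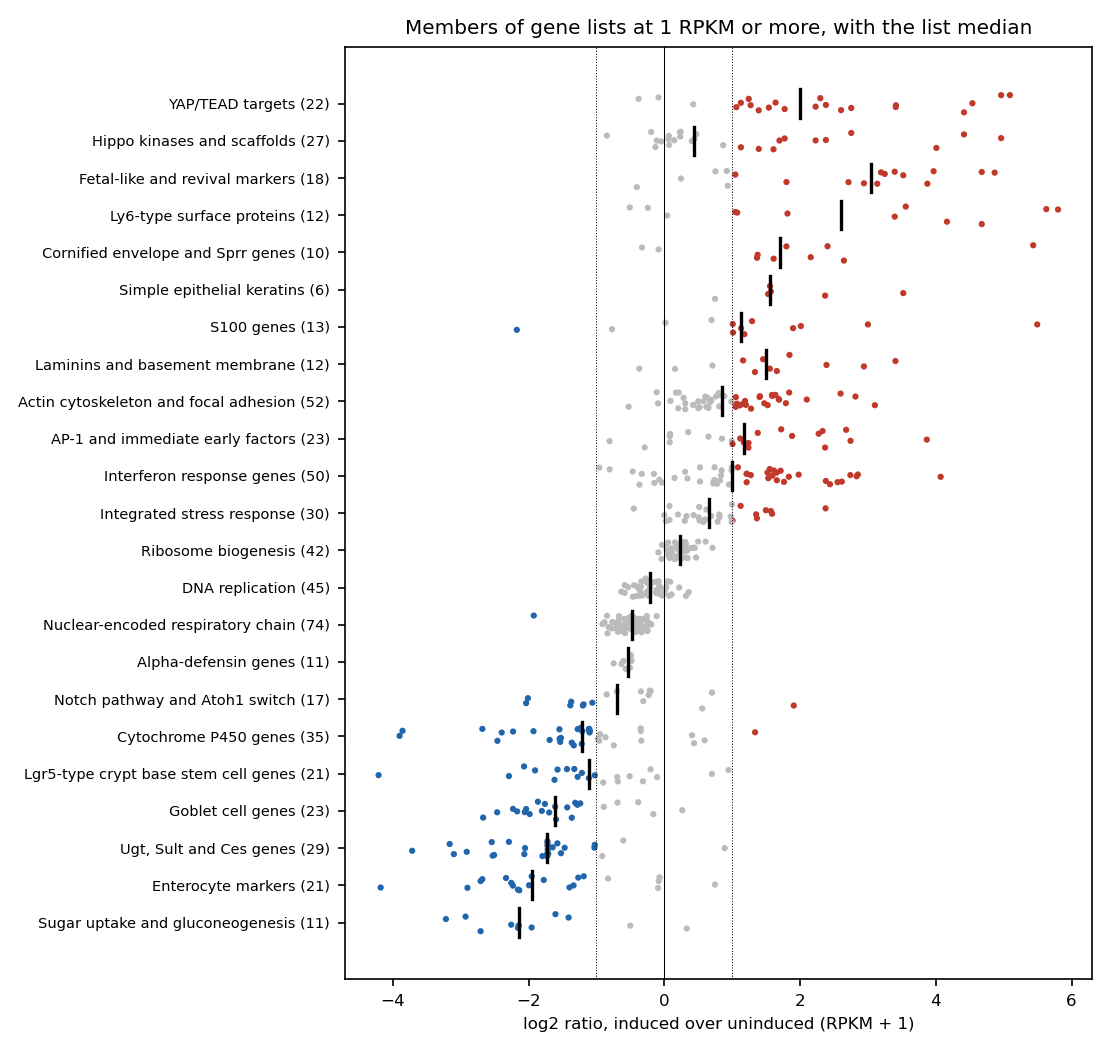
Log2 ratio of induced over uninduced (RPKM plus 1) for the members of 23 gene lists that reached 1 RPKM, with the number of members in brackets. Each point is a gene, red at least 2-fold higher and blue at least 2-fold lower, and the black bar is the list median, which runs from 3.04 for fetal-like and revival markers to -2.14 for sugar uptake and gluconeogenesis.

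Basement membrane genes were mostly higher, and cytoskeleton and adhesion genes were higher in part. Of 12 laminins and other basement membrane genes, 9 were at least 2-fold higher and 0 lower, with a median of 1.51. Lama5, an alpha chain of epithelial laminins, was at 0.722 RPKM uninduced, 17.2 induced, 0.445 in Yap+/- and 0.350 in Yap-/-. Lamb3, a chain of the laminin under hemidesmosomes, was 5.84-fold higher. Col4a1 and Col4a2, a head-to-head gene pair that encodes collagen IV, had 4 and 7 uninduced reads and 1.56 and 2.01 RPKM with induction. Of 52 actin and focal adhesion genes 24 were higher and 0 lower, with a median of 0.85 and 49 of 52 above 0. Of 12 tubulin genes 2 were higher and 0 lower, with a median of 0.12. Among the filamin genes, which encode actin cross-linkers, Flna was 8.59-fold higher and Flnc went from 3 reads to 5.09 RPKM, 728-fold (95% interval 249 to 3531). Actb, which is often used for normalisation, was at 437 and 1413 RPKM, with 471 in Yap+/- and 451 in Yap-/-.

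Junction genes differed by class. Of 21 claudins and tight junction genes 8 were higher and 2 lower. Those higher include genes of polarity and of the junction scaffold, with Pard6b 5.38-fold, Tjp1 (ZO-1) 4.37-fold and the kinase gene Prkci 2.96-fold above the uninduced library. The 2 lower were Cldn2 (101 to 33.9 RPKM) and Cldn15 (169 to 61.3 RPKM), which form cation pores of the crypt and villus. Of 9 integrins only Itgb6 (5.40-fold) and Itgb4 (2.24-fold) were past 2-fold. In the plasminogen and protease list 9 of 20 were higher and 1 lower. Plau (urokinase) had 2 uninduced reads and 4.76 RPKM with induction, its receptor gene Plaur went from 7.25 to 85.8 RPKM, and Adam8 was 36.9-fold higher (95% interval 29.4 to 46.9). Wfdc2, a secreted inhibitor, was at 1.15 and 21.1 RPKM.

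Signalling genes divided by pathway. Of 23 AP-1 and immediate early factors 14 were higher and 0 lower, with a median of 1.17. Ier3 was 18.3-fold, Fosl1 (Fra-1) 11.4-fold and Klf6 5.39-fold higher. Among 16 genes of ERK feedback 7 were higher, led by the phosphatase gene Dusp14 at 1.73 RPKM uninduced, 80.9 induced, 1.35 in Yap+/- and 1.15 in Yap-/-. The ERK-responsive factors Etv4 and Etv5 pointed the other way, with log2 ratios of -0.997 and -0.81 that stayed inside 2-fold. Of the EGF receptor family Egfr was 3.59-fold higher and its ligand gene Hbegf 5.15-fold, while the brake gene Lrig3 went from 10.9 to 2.79 RPKM and Erbb3 from 37.9 to 20.03 RPKM.

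In the BMP and TGF-beta list 7 of 26 genes were higher and 1 lower. Bmp2 was at 2.10 RPKM uninduced, 41.6 induced, 2.08 in Yap+/- and 1.15 in Yap-/-. Bmp3, a ligand that opposes other BMPs, was the 1 lower, at 12.6 and 1.87 RPKM. The BMP target genes Id1, Id2 and Id3 were 6.15-fold, 6.86-fold and 5.73-fold higher in a medium that holds the BMP inhibitor noggin, and the inhibitory Smad7 was 4.21-fold higher. Edn1, the precursor of the peptide endothelin, went from 1.32 to 35.4 RPKM, and Epha2, a receptor of ephrins, from 7.04 to 109.5 RPKM. The ligand gene Efna1 was 3.06-fold lower (28.1 to 9.17 RPKM). Of 17 Notch genes 7 were lower and 1 higher. Those lower include the ligand gene Dll4, at 3.02 and 0.538 RPKM, and the 1 higher is the ligand gene Jag2, at 0.955 and 6.33 RPKM. Of 24 Wnt genes 4 were lower and 3 higher. Wnt7a, a ligand gene near 0 in the other libraries, went from 2 reads to 3.18 RPKM, and Wnt3, the Paneth cell ligand, from 2.79 to 0.514 RPKM. On RPKM plus 1, no lower Wnt gene stood 2-fold below all 3 other libraries.

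Of 50 interferon response genes 24 were at least 2-fold higher and 0 lower, with a median of 0.99, and all 24 stood above all 3 other libraries. Isg15, a ubiquitin-like antiviral modifier, was at 1.97 RPKM uninduced, 49.0 induced, 2.83 in Yap+/- and 3.18 in Yap-/-. Rsad2 (viperin) was 51.0-fold higher (95% interval 33.2 to 82.5) and Usp18, which removes ISG15, 41.5-fold (95% interval 28.2 to 63.7). The factor genes were less far apart. Irf7 was 3.54-fold higher, Stat2 and Irf9 were 1.79-fold and 1.98-fold above the uninduced library and inside the 2-fold rule, and Irf1 stood at 14.5 and 10.2 RPKM. In antigen presentation, another interferon-dependent class, 0 of 22 class I genes were higher and 3 lower. B2m was at 212 and 147 RPKM and the immunoproteasome gene Psmb8 at 16.4 and 6.77. Of 19 higher interferon genes with a promoter window 11 (57.9%) held the interferon response element printed above for Isg15 and Ifit1. Immune markers, whose cells could carry such transcripts, are given above, and their part was not tested.

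Genes of absorptive metabolism were mostly lower. Because these are whole organoids, fewer cells of a type and less RNA per cell cannot be told apart here or in the groups that follow. Of 21 enterocyte markers 16 were lower and 0 higher, and their summed share went from 3.23% to 1.09% of RPKM. Fabp1, a fatty acid carrier, was at 1938 RPKM uninduced, 106 induced, 3457 in Yap+/- and 5766 in Yap-/-, 18.3-fold lower (95% interval 17.7 to 18.8). Of 11 genes of sugar uptake and gluconeogenesis 9 were lower, with a median of -2.14. G6pc, which releases glucose, was 18.3-fold lower, and the sugar carriers Slc2a5 and Slc5a1 7.90-fold and 4.85-fold lower.

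Fat and digestion genes were lower in part. In fat absorption 14 of 29 were lower and 1 higher. Apoa4 went from 353 to 79.6 RPKM, but Apoa1 stood at 471 and 449 and Apob at 107 and 126. The 1 higher was the lipid droplet gene Plin2 (14.1 to 29.4 RPKM). Among 21 brush border enzymes 11 were lower. Sis, sucrase-isomaltase, was at 612 and 129.7 RPKM, and Treh, trehalase, at 23.8 and 2.33. The alkaline phosphatase genes Alpi and Akp3 and the maltase gene Mgam did not follow, with Alpi at 369.8 and 349 RPKM and Mgam at 235 and 218. The 1 higher member was Lrp2 (megalin), an endocytic receptor of kidney tubules, with 2 uninduced reads, 6.81 RPKM induced, 0.00210 in Yap+/- and 0 in Yap-/-, 2555-fold (95% interval 707 to 21099). Brush border structure genes, unlike the enzymes, had 3 higher and 1 lower of 17.

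Detoxification genes were lower across several families. Of 29 Ugt, sulfotransferase and carboxylesterase genes 26 were lower and 0 higher, with a median of -1.72, and all 26 stood below all 3 other libraries. All 9 Ugt1a genes among them share their last exons, so they are not separate measurements. Ces1f, a carboxylesterase, was at 26.6 RPKM uninduced, 1.10 induced, 53.2 in Yap+/- and 67.2 in Yap-/-. Of 35 cytochrome P450 genes 23 were lower, and Cyp3a25 was 26.3-fold (95% interval 22.7 to 30.6) and Cyp2d26 17.2-fold below the uninduced library. The exception was Cyp4b1, 2.65-fold higher. Of 22 glutathione S-transferases 9 were lower and 22 had ratios below 0, with Gstm1 and Gstm3 at 9.61-fold and 9.86-fold. Of 33 aldehyde, aldo-keto and alcohol dehydrogenases 16 were lower, among them Adh1 (426 to 54.3 RPKM), and only Akr1b8 was higher (15.5 to 45.9 RPKM). Members of the Cyp3a, Cyp2c, Gstm and Akr1c families are close copies, and reads can be shared among them.

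Genes that handle metals and fat-soluble vitamins were lower in part. Of 16 genes of iron uptake and export 4 were lower and 3 higher, with a median of -0.30, and of 15 retinoid genes 7 were lower and 0 higher. The metallothionein genes Mt2 and Mt1, which bind zinc and copper, were at 649 and 826 RPKM uninduced and 48.0 and 199 induced, with 1423 and 1621 in Yap+/-. Vdr, the vitamin D receptor, was 4.39-fold lower, at 69.3 RPKM uninduced, 15.8 induced, 74.9 in Yap+/- and 80.5 in Yap-/-. Rbp2, the retinol carrier of enterocytes, went from 897 to 177 RPKM, and the iron reductase gene Cybrd1 from 17.4 to 2.18 RPKM. The 3 higher iron genes were Hmox1, which breaks down heme (2.94 to 14.2 RPKM), and the metal reductase genes Steap1 (2.86 to 13.1 RPKM) and Steap2 (1.89 to 7.80 RPKM). Of 219 solute carriers 44 were lower and 18 higher. The sulfate carrier gene Slc13a1 was 14.0-fold and the amino acid carrier gene Slc6a19 6.43-fold lower. Slc5a5, the iodide carrier of thyroid and stomach, was 47.8-fold higher (0.213 to 10.2 RPKM), and the vitamin carrier gene Slc5a6 7.35-fold. The chloride channel gene Ano1 was 15.9-fold higher, and Clca6 was 19.8-fold higher and reached 360.0 RPKM. The ATP-gated channel gene P2rx2 went from 0.359 to 64.7 RPKM. The water channel genes Aqp1 and Aqp4 were 4.07-fold and 7.14-fold lower.

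Genes of the secretory lineages were lower in part. Of 23 goblet cell genes 18 were lower and 0 higher, with a median of -1.61. Muc2, the gel-forming mucin, was at 59.5 RPKM uninduced, 12.5 induced, 31.6 in Yap+/- and 50.2 in Yap-/-. The factor genes Atoh1 and Spdef, which direct secretory and goblet fate, were 6.93-fold and 6.84-fold lower. Of 18 enteroendocrine genes 7 were lower and all 18 ratios were below 0. Neurog3, which starts that fate, was 9.58-fold lower (95% interval 7.13 to 13.1), against 2.24-fold for the granule gene Chga and 1.81-fold for the hormone gene Sst. Paneth cell genes were split. Of 17 granule and related genes 7 were lower, among them the angiogenin genes Ang and Ang4, but of 11 alpha-defensin genes 0 were past 2-fold, with log2 ratios from -0.75 to -0.48. The lysozyme gene Lyz1 stood at 3772 RPKM uninduced, 2358 induced, 1591 in Yap+/- and 3010.3 in Yap-/-. For Lyz1 the induced library thus lay inside the range of the other 3. So did the alpha-defensin sum, at 12143.5 RPKM uninduced, 8393 induced, 3483 in Yap+/- and 6795 in Yap-/-. Of the 7 lower granule and related genes, 4 stood 2-fold below all 3 other libraries. Ang4 was at 414 RPKM uninduced, 193 induced, 220 in Yap+/- and 482 in Yap-/-. Defensin genes are near-identical copies, and their single values are uncertain. Of 5 Reg genes, secreted lectins of defence and repair, 4 were lower, with Reg3a at 108 and 3.98 RPKM and Reg1 at 555 and 33.6. Tuft cell genes had 2 of 10 lower, and the marker Dclk1 was under 1 RPKM at 0.450 and 0.453 RPKM.

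Crypt base stem cell genes were lower, but the choice of reference library mattered. Of 21 such genes 12 were lower and 0 higher, with a median of -1.11, and 5 of the 12 stood 2-fold below all 3 other libraries. Olfm4, an abundant secreted stem cell marker, was among the 5, at 424 RPKM uninduced, 21.96 induced, 244 in Yap+/- and 501 in Yap-/-. Lgr5, the R-spondin receptor that defines these cells, was not, by the rule on RPKM plus 1, which shrinks ratios at low levels. In plain RPKM, induced Lgr5 was more than 2-fold below all 3. Lgr5 was at 6.15 RPKM uninduced, 0.910 induced, 1.90 in Yap+/- and 2.51 in Yap-/-, so the uninduced library was the highest of the 4 by a wide margin. Ascl2, the Wnt-dependent stem cell factor, was at 6.88 and 3.22 RPKM and inside 2-fold on RPKM plus 1, and Sox9 at 11.2 and 8.81. Among the reserve stem cell markers Krt19 was higher and Hopx lower (54.1 to 18.8 RPKM).

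Intestinal identity factors were mostly within 2-fold. Of 33 such factors 8 were lower and 1 higher. Cdx2 was at 62.5 RPKM uninduced, 69.5 induced, 72.8 in Yap+/- and 76.0 in Yap-/-, and Hnf4a at 187, 196, 174 and 166 RPKM. For both, the 4 libraries lay close together. Their paralogues differed more. Cdx1 went from 89.2 to 41.9 RPKM, although both Yap libraries were near the induced value (48.9 and 55.2), and Hnf4g was 3.25-fold lower (66.9 to 20.6 RPKM) and below all 3 other libraries. Gata4, the factor of the proximal small intestine, was at 34.6 and 41.4 RPKM. Klf4, a factor of surface epithelium and goblet cells, was the 1 higher, 5.54-fold (7.90 to 43.8 RPKM). Of 7 colon markers at 1 RPKM 1 was higher and 3 lower.

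Genes of growth and division were mostly within 2-fold. Of 45 DNA replication genes 0 were past 2-fold, and Mcm2 was at 27.9 and 26.5 RPKM. Of 40 mitosis genes 1 was higher, the contractile ring gene Anln at 9.37 and 31.3 RPKM, and Mki67 was at 42.6 and 35.0. The medians were -0.21 and -0.28, with 36 of 45 and 35 of 40 ratios below 0. Of 19 cyclins, kinases and inhibitors 2 were higher, Ccnd1 at 2.13-fold and Cdkn1c (p57), an inhibitor of division, at 14.5-fold (1.67 to 24.2 RPKM). Of 82 ribosomal protein genes and 42 ribosome biogenesis genes 0 were past 2-fold, with medians of -0.10 and 0.24 and 39 of the 42 above 0. All 74 nuclear-encoded respiratory chain genes had ratios below 0, with a median of -0.47. Only the subunit gene Cox7a1 passed 2-fold (40.4 to 9.93 RPKM).

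Stress programs differed from each other. Of 30 genes of the integrated stress response 8 were higher and 0 lower, with Ppp1r15a (GADD34) at 3.46 and 22.1 RPKM. Among 30 chaperone and unfolded protein response genes of the endoplasmic reticulum 0 were higher and 3 lower. The 3 were Agr2 (210.1 to 32.2 RPKM), Ern2 and Agr3, and Agr2 is also counted in the goblet list above. Of the 30 endoplasmic reticulum ratios 11 were above 0 and 19 below. The chaperone gene Hspa5 (BiP) fell just inside the rule, at 244 and 484 RPKM, a log2 ratio of 0.99. In the heat shock list 3 of 20 were higher, led by the small chaperone Cryab, from 2 reads to 13.3 RPKM. Of 18 hypoxia genes 7 were lower and 0 higher, with Car9 at 75.9 and 19.5 RPKM and Ndrg1 at 42.8 and 10.7. In the Yap libraries Car9 stood at 78.2 and 69.5 RPKM and Ndrg1 at 80.1 and 62.2. Of 8 oxidase genes of the Nox and Duox systems 5 were lower. Duox2, a source of hydrogen peroxide at the cell surface, was at 5.70 RPKM uninduced, 0.414 induced, 2.27 in Yap+/- and 2.12 in Yap-/-. Of 27 p53 targets and death genes 5 were higher and 2 lower, with the kinase gene Plk2 at 2.88 and 64.1 RPKM.

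Outside all 93 lists lay 398 of the 650 higher genes and 351 of the 644 lower. Among these Tinagl1, a matrix protein related to cathepsins, was at 3.92 RPKM uninduced, 87.6 induced, 3.02 in Yap+/- and 2.55 in Yap-/-. Ahnak, a giant scaffold protein under the membrane, and Capn2, a calcium-dependent protease, were 15.5-fold and 14.0-fold higher and reached 75.4 and 117 RPKM. Ggta1, which makes the alpha-galactose sugar epitope, went from 14 reads to 22.8 RPKM. Olfr194, an olfactory receptor gene, and Pbp2 had 0 reads in each of the other 3 libraries and 27.1 and 14.9 RPKM with induction. Whether these reads belong to those genes or to overlapping transcripts is uncertain, since the strand setting of the counting is not stated. On the lower side, Leap2, an antimicrobial peptide that also blocks the ghrelin receptor, was at 31.9 RPKM uninduced, 1.55 induced, 50.8 in Yap+/- and 65.4 in Yap-/-. Arg2, the mitochondrial arginase, was 10.3-fold lower and Abp1, which degrades histamine, 7.97-fold lower. Dmbt1, a secreted scavenger protein, went from 256 to 44.9 RPKM. Each of these genes stood outside the range of all 3 other libraries by 2-fold or more.

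Loss of Yap offered a comparison that shares no library with the induced pair. Of 10710 genes at 1 RPKM in the Yap-/- or Yap+/- library, 36 (0.336%) were at least 2-fold higher in Yap-/- and 61 (0.57%) lower. Of the 10533 genes that reached 1 RPKM in both pairs, 474 were higher and 639 lower with induction. With loss, 53 of the 10533 were lower and 35 higher. Both higher with induction and lower with loss were 38 genes, Yap1 itself among them, the gene altered in both pairs. They make up 8.02% of the 474 genes higher with induction and 71.7% of the 53 lower with loss. Another 12 were lower with induction and higher with loss, 1.88% of 639 and 34.3% of 35. In the same direction there were 2 genes higher in both and 6 lower in both. Over the 474 genes higher with induction the median log2 ratio of Yap-/- over Yap+/- was -0.25, with 395 below 0, and over the 639 lower genes it was 0.24, with 537 above 0. The median of all 10533 was 0.05.

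The 38 genes include surface, matrix and cornified proteins. Msln (mesothelin) was at 5.41 RPKM uninduced, 186 induced, 5.15 in Yap+/- and 0.286 in Yap-/-. Clu (clusterin), a mark of revival stem cells, was at 2.65, 31.1, 2.61 and 0.550 RPKM in the same order, and the receptor gene Epha2 at 7.04, 109.5, 6.49 and 2.22. For Msln, Clu and Epha2 the order of the libraries was Yap-/- lowest and induced highest. That order did not hold for all 38, with Cldn4 at 33.0 RPKM uninduced and 33.2 in Yap-/-. The 12 genes of the opposite kind include Olfm4, G6pc and Nox1, an oxidase of crypt cells at 5.21 RPKM uninduced, 1.51 induced, 2.61 in Yap+/- and 9.22 in Yap-/-. Fabp6, the ileal bile acid carrier, was among the 6 lower in both, at 86.7, 3.13, 12.7 and 5.77 RPKM. Ankrd1, Axl and S100a7a, among the genes furthest higher with induction, were at 0, 0.0209 and 0.0237 RPKM in Yap+/- organoids and so were under the 1 RPKM limit of the loss pair.

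**Figure D5:**
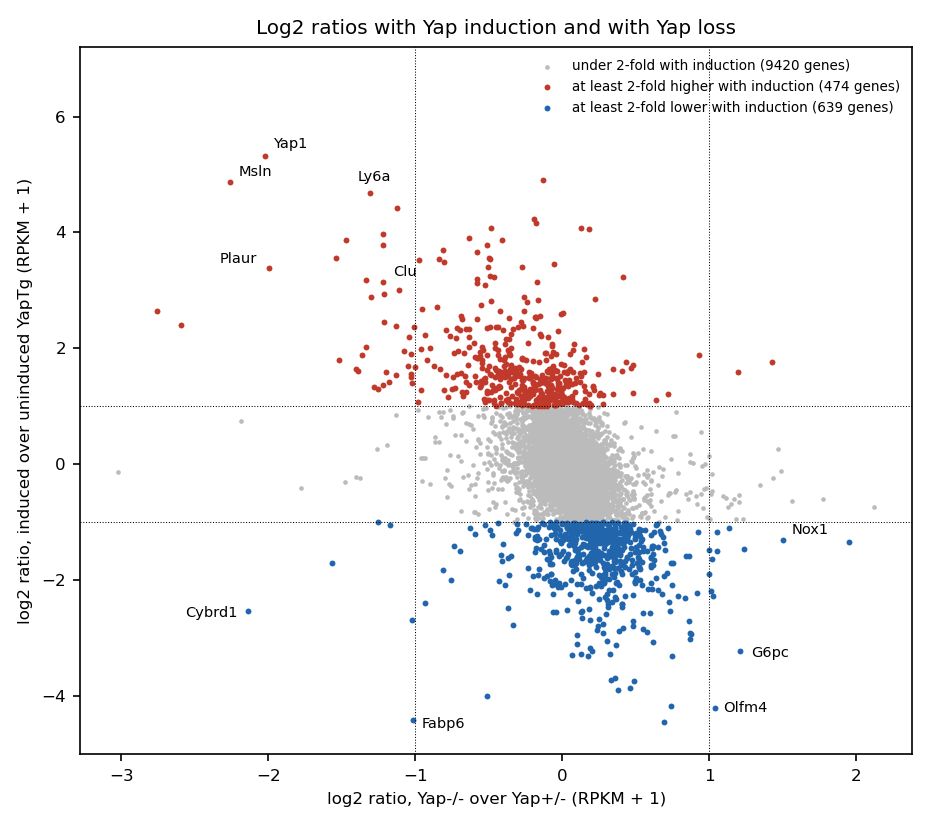
Log2 ratio of Yap-/- over Yap+/- (x axis) and of induced over uninduced YapTg (y axis), on RPKM plus 1, for the 10533 genes at 1 RPKM in both pairs. Dotted lines mark 2-fold. The upper left corner holds 38 genes, the lower right 12, the lower left 6 and the upper right 2.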

How the data were processed

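RNA-seq of 4 libraries was deposited as a table of RPKM values for 22632 genes. Per the submitters' processing notes, CASAVA 1.8, FastQC, TopHat 1.4.1 and mm9 were used. Not given in the sources used here were the counter, its annotation, the strand setting and the handling of reads with several matches. The deposited RPKM values were turned back into reads with GENCODE M21 exon lengths (used as lengths only) and library totals solved from the values. All 17378 genes above 0 came out whole within 0.001 reads, 6714 of them at the annotated length, 10088 at the nearest length that fits and 576 at the shortest. A wide range of lengths was searched, so whole reads alone do not show that a length is right. Away from the annotated length, reads and intervals depend on the length chosen. No count test was run, since each group had 1 library. Log2 ratios were taken on RPKM plus 1, for genes that reached 1 RPKM in the induced or the uninduced library, and 2-fold was the call. Folds are RPKM ratios with exact conditional binomial 95% intervals; a fold against 0 reads is a lower bound from 3 reads per library. Depth was 44934170 to 75269003 reads, and the intervals cover counting error only. Median-ratio and upper-quartile scaling, pseudocounts of 0.1 and 5, other floors, established names only, a 4-fold call and leaving out Yap1 were alternatives, and a comparison with all 3 other libraries was added after the data were seen. Unused sample columns numbered 0. The genes, 93 lists and rules were chosen with earlier results of these data known.

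Genes were named by rule: Yap1, the 15 highest and 15 lowest ratios among genes at 5 RPKM with an established name, the 10 largest gains and losses of RPKM, 4 far and 2 high members of each list, the 10 highest and 10 lowest in no list, members past 2-fold against their list, genes at 0 in 1 library, and markers of other cell types. Named outside it, after their values were seen, were Akp3, Ang, Ang4, Apoa1, Apob, Ascl2, Asl, Birc5, Cav1, Cav2, Cd44, Chga, Clu, Col4a1, Col4a2, Cps1, Dclk1, Ehd2, Etv4, Etv5, Evpl, Fbxo24, Gata4, Irf1, Irf9, Krt20, Krt23, Lats1, Lats2, Mcm2, Mgam, Mki67, Mt1, Nags, Nf2, Oat, Otc, Ppef1, Prkci, Ptrf, Rsad2, Slc6a19, Smad7, Sox9, Sst, Stat2, Stk3, Stk4, Tead1, Tead2, Tead3, Vgll4 and Wwtr1. The work used Python 3.11.15, numpy 2.4.6, pandas 2.3.3, scipy 1.17.1 and matplotlib 3.10.9. The calculations were tested on simulated data in which every gene had its annotated length. That test does not cover genes placed at another length. Promoters are RefSeq, GRCm38.p6. A few genes are not reported here.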

Additional observations from a re-analysis of the deposited data

How the results depend on the processing

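With 1 library per group no replicate could be left out, and nothing here measures the spread between cultures. No paired analysis was possible because the labels give no replicate numbers and each group holds 1 library. The 650 higher and 644 lower genes became 350 and 323 with a pseudocount of 5, and 191 and 121 at 4-fold. Within 1.5 times of the main counts were a pseudocount of 0.1 (838 and 915), median-ratio scaling (677 and 617), upper-quartile scaling (650 and 648), a floor of 5 RPKM (524 and 512), established names only (599 and 577), a bound on the counting interval (649 and 642), Yap1 left out (664 and 631) and all 3 other libraries as reference (578 and 513). Median-ratio scaling moved the log2 ratios of RPKM by 0.03 and upper-quartile scaling by -0.003. Of 21 lists whose median passed 2-fold, 9 fell under it with a pseudocount of 5, 10 without the floor and 2 without the furthest member. With another floor, no floor or without the furthest member, 9 list medians changed sign. The cytokine median went from -0.28 to 0.010 without the floor and the aryl hydrocarbon receptor median from -0.40 to 0.044, the bile acid median went from 0.19 to -0.23 with a floor of 5 RPKM, and the immune marker median from -0.29 to 0.83. The median of the stromal markers turned from -0.53 to 0.0057 without the floor and to 0.17 without its furthest member, which leaves 1 gene. Of 332 named genes past 2-fold, 74 were under it with a pseudocount of 5.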

Other observations

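A few sets of genes outside the lists lay on the same side, and were put together after their values were seen. Genes of citrulline synthesis, which the small intestine carries out for the whole body, were lower with induction. Cps1, which makes carbamoyl phosphate, was at 370.1 RPKM uninduced, 109 induced, 271 in Yap+/- and 343 in Yap-/-. Otc, which joins it to ornithine, was 3.53-fold lower (27.9 to 7.90 RPKM), Oat, which makes ornithine, 3.44-fold lower, and Nags, which makes the activator of Cps1, 2.68-fold lower. Asl, a later step towards arginine, stood at 7.72 and 8.41 RPKM.

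Genes of caveolae, small pits of the cell membrane, were higher from a low level. Ptrf, a coat protein of these pits, was at 1.12 RPKM uninduced, 21.4 induced, 1.24 in Yap+/- and 0.574 in Yap-/-, and Ehd2, which sits at their necks, went from 0.161 to 11.8 RPKM. Cav2 went from 0.0801 to 1.81 RPKM, and Cav1 had 0 reads in each of the other 3 libraries and 0.507 RPKM with induction, under the 1 RPKM limit.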
